A study of Mus musculus with 9 samples.

Results

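The cyclin-dependent kinase inhibitors of the mouse genome were followed in sorted hair follicle stem cells of freely fed and food-restricted mice. The members were the 7 gene symbols of the Cip/Kip and INK4 families, chosen by name and not by any measured value, among 35006 gene symbols in the deposited count tables. They were 3 Cip/Kip genes (Cdkn1a, Cdkn1b and Cdkn1c) and 4 INK4 genes (Cdkn2a, Cdkn2b, Cdkn2c and Cdkn2d). RNA was sequenced from cells of C57BL/6J mice sorted as positive for the surface proteins CD34 and alpha6 integrin, which mark the stem cells of the hair follicle bulge. The AL group (ad libitum) had unlimited food and gave 5 libraries. The DR group (dietary restriction) received each day 70% of the food eaten by AL mice matched for weight and sex, and gave 4 libraries. All mice were housed singly, and cells were pooled from 3 mice per group. The labels name no age, hair cycle stage, irradiation or batch for any library, although the series title speaks of irradiation. They do not say whether each library came from its own pool, so p-values measure the spread between these libraries, which may be technical.

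Cyclin-dependent kinases drive the cell cycle when bound to cyclins, and the inhibitors hold them in check. INK4 proteins bind Cdk4 and Cdk6 and keep the D cyclins away, whereas Cip/Kip proteins bind assembled kinase and cyclin complexes, above all those of Cdk2. Hair follicle stem cells of the bulge rest for most of the hair cycle, and these inhibitors are among the known brakes on their entry into division.

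Library totals over genes ran from 26119459 to 33559312 reads, so a count of 0 allowed up to 0.0816 to 0.113 CPM (counts scaled by TMM to a common library size) in a single library. The sorting antigens were present in both groups. Cd34 had 1083 ± 579 CPM (SD, n = 5) in AL and 479 ± 102 (n = 4) in DR, and Itga6, the alpha6 integrin gene, had 449 ± 44.9 and 412 ± 11.8 CPM. Of 14 bulge markers tested, 2 were higher and 7 lower in DR, and they summed to 34245 to 50134 CPM in AL libraries and to 24218 to 26700.5 CPM in DR libraries. Markers of other cells ranged widely. The 6 markers of suprabasal epidermis summed to 2102 to 4855 CPM in AL libraries and 2387 to 5782 CPM in DR libraries, with 2 of 6 higher in DR, Krtdap and Sbsn, and with Krt10 the most abundant at 1896 ± 811 and 1929 ± 863 CPM. The 6 melanocyte markers summed to 111 to 230.4 CPM in AL and 124 to 176 CPM in DR (2 of 4 tested fell), and the 6 fibroblast markers to 74.0 to 123 and 19.8 to 40.5 CPM (1 of 4 tested rose and 2 fell). The 6 endothelial markers summed to 2.22 to 18.7 CPM in AL and 4.64 to 39.2 CPM in DR, and the 6 leukocyte markers to 2.52 to 31.5 and 6.43 to 39.5 CPM. The 4 adipocyte markers summed to 0.301 to 11.6 CPM in AL and 3.32 to 46.2 CPM in DR. In bulk RNA, fewer cells of a type and less RNA per cell cannot be told apart.

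Among the members, 1 fell in DR and none rose past the threshold. Cdkn2c, which encodes p18Ink4c, fell by 0.83 on the log2 scale. Cdkn1a, Cdkn1b, Cdkn1c and Cdkn2d had higher means in DR, and Cdkn2b a lower one, with none of these 5 past an adjusted p of 0.05 in the quasi-likelihood test of edgeR over all genes. Cdkn2a was nearly undetected. In all, 6 of the 7 members passed the filter on low counts and 1 of those 6 was called, where 40.7% of all 15447 tested genes were called, 19% higher and 21.7% lower in DR. At an unadjusted p under 0.05 there were 3 of the 6 members tested, Cdkn1a, Cdkn1c and Cdkn2c, a share close to the 49.5% of all tested genes at that p. For none of the members did the 4 DR libraries lie wholly above or below the 5 AL libraries, against 32.9% of all tested genes.

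**Figure D1:**
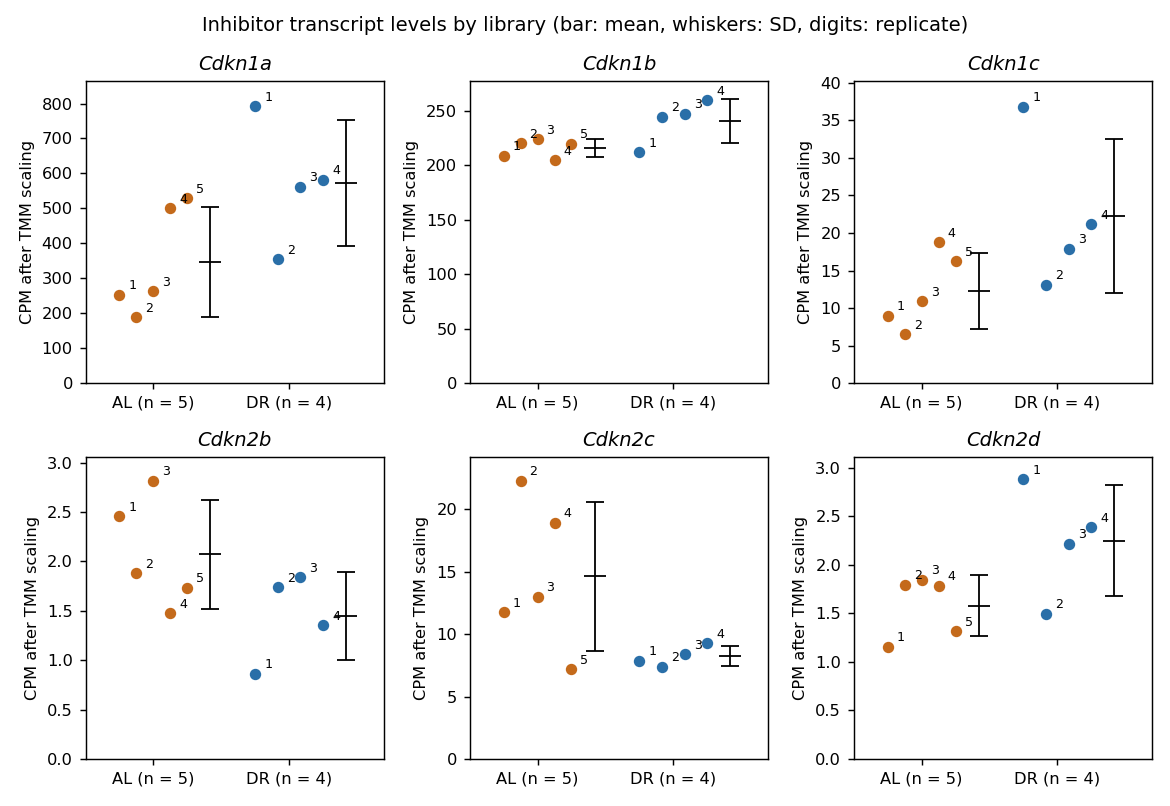
Level of 6 inhibitors in CPM after TMM scaling (y axis, linear from 0) in each AL library (n = 5) and each DR library (n = 4), with the replicate number beside each point and the group mean ± SD as a bar with whiskers. The groups overlap for every gene, and for Cdkn2c the 4 DR libraries lie between 7.39 and 9.25 CPM while the AL libraries spread from 7.19 to 22.3.

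Cdkn1a encodes p21, the best known transcriptional target of p53. RefSeq places its transcript starts at a pair of sites on mouse chromosome 17, and the 250 bases before each (GRCm38.p6, plus strand) are shown because p53 targets are described further on. Capitals mark a match to the p53 response element with at most 1 mismatch outside the C, A or T, A or T, G cores of its repeats.
Cdkn1a upstream start, chr17:29090729-29090978: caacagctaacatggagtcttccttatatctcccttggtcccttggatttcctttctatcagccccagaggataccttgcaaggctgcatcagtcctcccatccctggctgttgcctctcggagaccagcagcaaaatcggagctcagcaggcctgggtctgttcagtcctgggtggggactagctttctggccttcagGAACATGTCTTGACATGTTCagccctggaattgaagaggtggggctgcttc
Cdkn1a downstream start, chr17:29093519-29093768: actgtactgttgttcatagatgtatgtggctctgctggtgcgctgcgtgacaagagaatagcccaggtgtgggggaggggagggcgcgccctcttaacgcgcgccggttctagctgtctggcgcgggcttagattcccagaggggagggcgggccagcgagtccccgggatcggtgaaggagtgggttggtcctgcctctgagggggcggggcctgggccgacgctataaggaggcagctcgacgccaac
The match begins 51 bases before the upstream start. The same search, on both strands, found a match in 15 of 32851 promoter windows of this length, or 0.0457%. It found none in the downstream Cdkn1a window or in the windows of the other members in the table (Cdkn1b, Cdkn2a, Cdkn2b, Cdkn2c and Cdkn2d). A match is a stretch of letters, not a measured binding site.

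Cdkn1a had 253, 189, 263, 500 and 529 CPM in AL libraries 1 to 5. It had 793, 355, 562 and 582 CPM in DR libraries 1 to 4. AL libraries 4 and 5 stood well above the other AL libraries, 3 DR libraries exceeded every AL library, and DR library 2 lay inside the AL range. The mean was 347 ± 156 CPM in AL (SD, n = 5) and 573 ± 179 in DR (n = 4), a log2 fold change of 0.72 (SE 0.32, 95% interval 0.02 to 1.43, edgeR adjusted p = 0.0920). Leaving out AL library 5 gave 0.93 (edgeR adjusted p = 0.0311) and leaving out DR library 1 gave 0.53 (edgeR adjusted p = 0.237), so passing the threshold turned on single libraries. An antisense gene model, AC167363.2, shares 273 exon bases with Cdkn1a, and the kit does not mark strand.

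Cdkn1c encodes p57, an inhibitor whose gene is imprinted and expressed from the maternal allele. It had 8.99, 6.53, 10.9, 18.8 and 16.2 CPM in AL libraries 1 to 5. It had 36.8, 13.1, 17.9 and 21.2 CPM in DR libraries 1 to 4. As for Cdkn1a, AL libraries 4 and 5 were the highest of AL, DR library 1 was the highest of all and DR library 2 the lowest of DR, and the groups overlapped. The mean was 12.3 ± 5.09 CPM in AL and 22.3 ± 10.2 in DR, a log2 fold change of 0.86 (SE 0.34, 95% interval 0.11 to 1.61, edgeR adjusted p = 0.0649). The gene passed the threshold without AL library 4 (log2 fold change 1.06, edgeR adjusted p = 0.0314), without AL library 5 (0.98, 0.0474) or without DR library 2 (1.045, 0.0361), and without DR library 1 the value was 0.51 (0.229). An antisense gene model, Gm44732, shares 625 of its exon bases. The endothelial markers were highest in DR library 1 (summed 39.2 CPM), DR library 2 (24.0) and AL library 1 (18.7). Without these 3 libraries, an analysis added after seeing the data, the Cdkn1c log2 fold change was 0.58 (SE 0.37, edgeR adjusted p = 0.267). Leaving out DR library 1 alone had already given 0.51. DR library 2 was the lowest of DR in Cdkn1c, and AL library 1 was below the AL mean. This omission therefore cannot speak to endothelial RNA, whose part was not tested.

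The libraries high in Cdkn1a and Cdkn1c were also high in immediate early genes, a set of transcription factors and regulators induced within minutes of a stimulus or of tissue handling. The mean log2 CPM of 10 such genes (Fos, Fosb, Jun, Junb, Atf3, Egr1, Ier2, Ier3, Zfp36 and Nr4a1, a list chosen after values were seen) was 11.86, 12.02, 12.17, 12.63 and 12.57 in AL libraries 1 to 5. In DR libraries 1 to 4 it was 12.49, 11.72, 12.44 and 12.37. The order within each group was close to that of Cdkn1a: AL libraries 4 and 5 were high and DR library 2 was low. The list itself held 0 genes that rose and 1 that fell, Nr4a1, a nuclear receptor (log2 difference -0.75 with SE 0.26, adjusted p = 0.0399 by edgeR), and its median log2 fold change was -0.01. No gene of the list fell without AL library 3, 4 or 5 or any single DR library, and 2 rose without DR library 2. With the list mean as a covariate, the Cdkn1a log2 fold change was 0.77 (SE 0.16, edgeR adjusted p = 0.00321) and that of Cdkn1c was 0.87 (SE 0.20, edgeR adjusted p = 0.00633). The sizes stayed near those without the covariate, while both standard errors became smaller. The list was chosen with values of these same libraries seen. The smaller standard errors and adjusted p are therefore no further support for a rise of either gene. The part of these genes in the result was not tested.

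**Figure D2:**
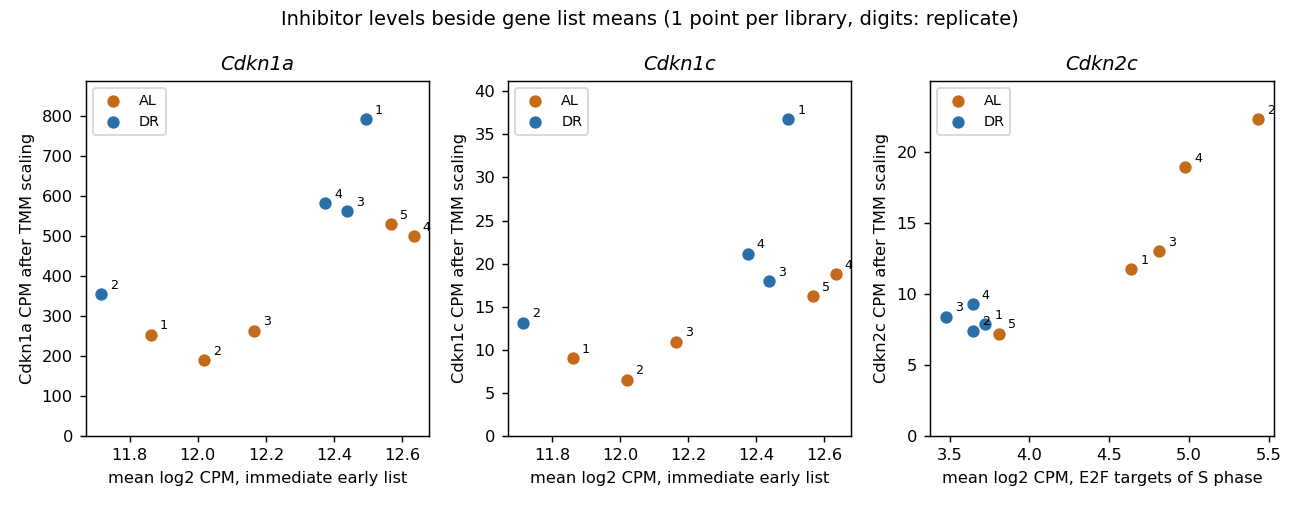
CPM of Cdkn1a and Cdkn1c (y axes, linear from 0) against the mean log2 CPM of the immediate early list, and CPM of Cdkn2c against the mean log2 CPM of the E2F target list, with 1 point per library (5 AL, 4 DR) and its replicate number. Within each diet, the libraries high on the immediate early axis are also high in Cdkn1a and Cdkn1c, and for Cdkn2c AL library 5 (7.19 CPM) is just below the lowest DR library (7.39) and nearest to DR on the E2F axis.

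Cdkn1b encodes p27, an inhibitor of Cdk2 complexes that is regulated largely through protein stability. It had 209, 220, 224, 205 and 219.9 CPM in AL libraries 1 to 5. It had 212, 245, 247 and 259.6 CPM in DR libraries 1 to 4. The AL libraries differed by at most 1.09-fold, the smallest spread of any member, and 3 DR libraries exceeded every AL library while DR library 1 did not. The mean was 215 ± 8.27 CPM in AL and 241 ± 20.4 in DR, a log2 fold change of 0.16 (SE 0.09, 95% interval -0.03 to 0.35, edgeR adjusted p = 0.154). The upper bound of that interval is a 1.27-fold difference.

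Among the INK4 genes, Cdkn2c had 11.7, 22.3, 13.0, 18.9 and 7.19 CPM in AL libraries 1 to 5. It had 7.88, 7.39, 8.38 and 9.25 CPM in DR libraries 1 to 4. Every DR library was below the AL mean and below 4 of the 5 AL libraries, but AL library 5 was the lowest of all 9. The mean was 14.6 ± 5.99 CPM in AL and 8.23 ± 0.796 in DR, a log2 fold change of -0.83 (SE 0.28, 95% interval -1.44 to -0.22, edgeR adjusted p = 0.0328). The spread differed too: the SD was 41.0% of the mean in AL and 9.68% in DR, a difference that was not tested. Without AL library 5 the log2 fold change was -1.01 (edgeR adjusted p = 0.00260). Leaving out AL library 2 or 4 or any single DR library ended the call, with log2 fold changes from -0.62 to -0.89 and adjusted p from 0.0572 to 0.0787.

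The AL libraries ordered by Cdkn2c were in the order of their E2F targets, genes of DNA replication that E2F factors switch on when the retinoblastoma protein is phosphorylated. The mean log2 CPM of the 20 genes on that list was 4.64, 5.43, 4.81, 4.98 and 3.81 in AL libraries 1 to 5. It was 3.72, 3.64, 3.48 and 3.64 in DR libraries 1 to 4. The DR libraries did not keep the order: Cdkn2c was highest in DR library 4, and the list mean in DR library 1. AL library 5 was the nearest to DR on this list as it was for Cdkn2c. The order was not particular to E2F targets. Genes of G2 and M phase had means of 4.33, 5.15, 4.36, 5.19 and 2.44 in AL libraries 1 to 5. The list of Cdk1, Cdk2 and their cyclins had 3.85, 4.61, 3.94, 4.65 and 2.43. Both had the Cdkn2c order except that AL library 4 stood above AL library 2. The search for E2F sites (TTTGGCGC, TTTCGCGC, TTTCCCGC or TTTGCCGC, on both strands) matched none of the windows before the Cdkn2c starts (chr4:109666757-109667006 and chr4:109665373-109665622, minus strand), and 1.86% of all windows. Only exact matches in the 250 bases before each start were looked for, and whether E2F factors act on Cdkn2c was not tested.

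Cdkn2b encodes p15Ink4b, an inhibitor known to be induced by TGF-beta in epithelial cells. Its CPM was 2.46, 1.88, 2.82, 1.48 and 1.73 in AL libraries 1 to 5, from 43 to 84 reads. In DR libraries 1 to 4 it was 0.863, 1.74, 1.84 and 1.35, from 24 to 58 reads. DR libraries 1 and 4 were below every AL library and the other DR libraries were within the AL range. The mean was 2.07 ± 0.550 CPM in AL and 1.45 ± 0.443 in DR, with a log2 fold change of -0.51 (SE 0.27, 95% interval -1.12 to 0.09, edgeR adjusted p = 0.158).

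Cdkn2d encodes p19Ink4d. Its CPM was 1.16, 1.80, 1.84, 1.78 and 1.32 in AL libraries 1 to 5, from 32 to 66 reads. In DR libraries 1 to 4 it was 2.88, 1.496, 2.22 and 2.39, from 50 to 80 reads. The other 3 DR libraries were above every AL library, DR library 2 being within the AL range. The mean was 1.58 ± 0.319 CPM in AL and 2.24 ± 0.572 in DR, a log2 fold change of 0.50 (SE 0.24, 95% interval -0.02 to 1.02, edgeR adjusted p = 0.113). It passed the threshold without DR library 2 (0.66, edgeR adjusted p = 0.0457).

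Cdkn2a encodes p16Ink4a and, in another reading frame, p19Arf, and is widely used as a marker of senescent cells. A count per gene cannot separate these products. It had 0, 1, 1, 1 and 1 reads in AL libraries 1 to 5 and 0 in each of the 4 DR libraries. It did not pass the filter, and both groups lay below the level that a count of 0 allows, so no fold was computed. The two-sided exact permutation test of its CPM gave p = 0.0476 over 126 splits, on 4 reads in all. Without 1 library the exact p ran from 0.0286 to 0.143. At this depth the gene was not detectable above that level in either diet.

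Per length of transcript, RNA of the Cip/Kip genes Cdkn1a and Cdkn1b far exceeded that of every INK4 gene. CPM was divided by the union exon length in kilobases (GENCODE M21 models, with 3553 bases for Cdkn1a and 4552 for Cdkn1b, not the annotation the counts were made with). Cdkn1a had 97.6 ± 43.9 CPM per kb in AL and 161 ± 50.4 in DR, and Cdkn1b had 47.3 ± 1.82 and 52.9 ± 4.48. In AL, Cdkn1c (6.03 ± 2.49 CPM per kb) and Cdkn2c (5.45 ± 2.23) did not differ beyond their spread, and in DR they had 10.9 ± 5.02 and 3.06 ± 0.296. Cdkn2b and Cdkn2d came next, at 1.49 ± 0.396 and 1.003 ± 0.203 CPM per kb in AL and 1.04 ± 0.319 and 1.43 ± 0.363 in DR, with overlapping spreads in DR. Of the summed CPM per kb of all members, Cdkn1a made up 46.1% to 70.9% in AL libraries and 60.5% to 76.1% in DR, and Cdkn1b 22.0% to 41.8% and 15.9% to 32.6%. Cdkn2c made up between 1.27% and 7.18% of that sum in AL libraries and between 1.0002% and 1.67% in DR libraries.

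Most of the kinases and cyclins that the inhibitors bind fell in DR. Of the 5 INK4 targets, the kinases Cdk4 and Cdk6 and the D cyclins, 4 fell and none rose, with a median log2 fold change of -0.78 against -0.02 over all tested genes. Ccnd1 fell from 102 ± 15.6 to 31.9 ± 4.67 CPM (log2 difference -1.68 with SE 0.14, adjusted p = 1.58e-05 by edgeR). Cdk4 fell from 152 ± 29.7 to 69.6 ± 3.86 CPM (log2 difference -1.13 with SE 0.14), Cdk6 had a log2 fold change of -0.78 and Ccnd2 of -0.58. Ccnd3 did not pass the threshold, at -0.27 (edgeR adjusted p = 0.187).

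Of 7 tested Cip/Kip targets, Cdk1, Cdk2 and their cyclins, 6 fell and none rose, with a median log2 fold change of -3.82. Cdk1, the kinase of mitosis, went from 26.4 ± 15.1 to 1.10 ± 0.784 CPM (log2 difference -4.55 with SE 0.67, adjusted p = 0.000460 by edgeR). Its partners Ccnb1, Ccna2 and Ccnb2 had log2 fold changes of -4.37, -4.15 and -3.82. The kinase Cdk2, the main target of p21 and p27, fell by 0.47, and Ccne2 by 0.92. Ccne1 was at -0.95 and did not pass (edgeR adjusted p = 0.109).

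**Figure D3:**
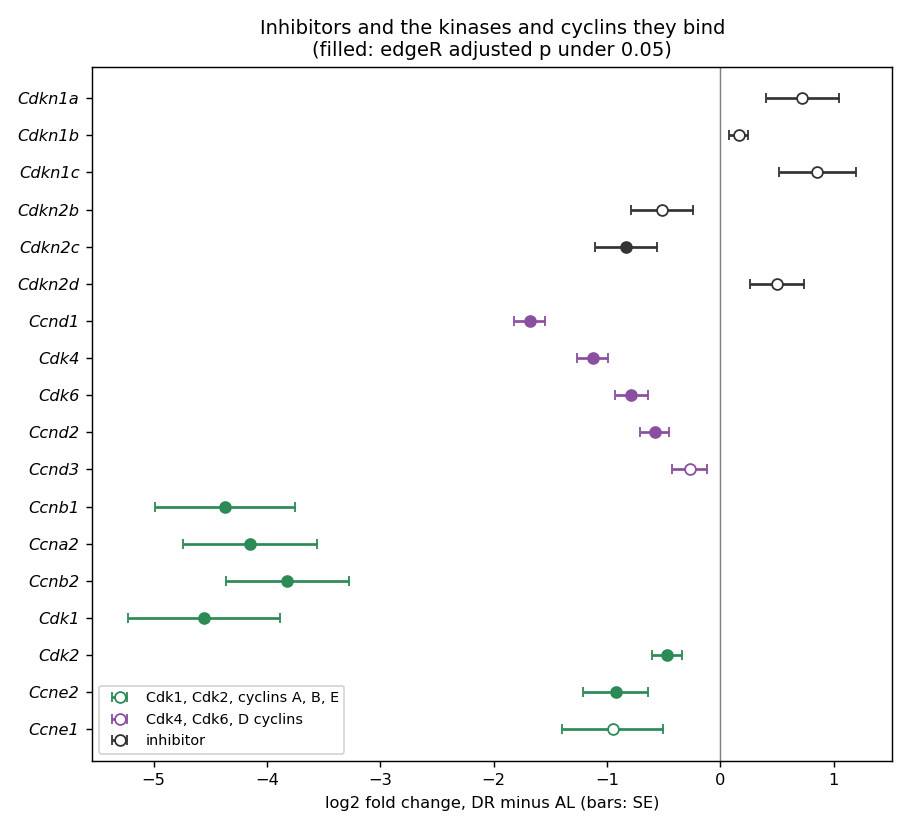
Log2 fold change of DR minus AL (x axis, bars are SE) for 6 inhibitors and for the kinases and cyclins they bind, with filled points past an edgeR adjusted p of 0.05 (5 AL and 4 DR libraries). All 12 targets lie below 0, from -0.27 for Ccnd3 to -4.55 for Cdk1. Of the 6 inhibitors, 4 lie above 0, none of those 4 past the threshold, where the median over all tested genes is -0.02.

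Inhibitor reads were also set against reads of a D cyclin or kinase that fell, in pairs chosen as examples. Cdkn1b had 1.81 to 2.54 reads per Ccnd1 read in AL libraries and 5.55 to 9.53 in DR, and Cdkn1a had 1.56 to 4.90 and 11.9 to 21.4. The groups did not overlap for either ratio. Ccnd1 CPM alone did not overlap between the groups, whereas the CPM of each of these inhibitors did. The separation of the ratios thus came with the choice of Ccnd1 and is no result about the inhibitors. Cdkn2c had 0.0641 to 0.118 reads per Cdk4 read in AL and 0.101 to 0.145 in DR, and those ranges overlapped although Cdk4 fell. Ccnd1 stands here on the list of INK4 targets, not of Cip/Kip targets. These ratios are of raw reads, are not corrected for length and say nothing of protein.

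Genes of inhibitor turnover, mostly ubiquitin ligase parts that mark p27 and p21 for destruction, moved in both directions: of 16 tested, 3 rose and 5 fell, with a median of 0.14. Dtl, the substrate receptor that brings p21 to the Cul4 ligase, fell by 3.62 on the log2 scale and Cdc20, an activator of the anaphase-promoting complex, by 3.13. Cks1b, the cofactor of Skp2 in recognising p27, went from 17.5 ± 4.79 to 8.74 ± 0.624 CPM (log2 difference -1.01 with SE 0.20, adjusted p = 0.00224 by edgeR). Skp2 itself was at -0.69 (edgeR adjusted p = 0.0544). Cul4b, a scaffold of the Cul4 ligase, rose by 0.44.

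Of 27 transcriptional regulators of the inhibitors, 9 rose and 5 fell, with a median of 0.10. Tbx2, a T-box repressor known to act on Cdkn1a and Cdkn2a, rose from 2.18 ± 0.328 to 11.9 ± 2.68 CPM (log2 difference 2.45 with SE 0.19, adjusted p = 1.10e-05 by edgeR). Cbx7, a Polycomb protein that represses Cdkn2a, rose by 1.15, and Foxo3, a forkhead factor that activates Cdkn1b, by 1.09. Trp73, a p53 relative, had a log2 fold change of -1.43. Without AL library 3 or DR library 3, 3 of the list fell rather than 5.

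Of 8 genes of TGF-beta input, the known inducer of Cdkn2b, 2 rose and 1 fell, with a median of 0.02. Tgfb3, a ligand, fell by 1.26 on the log2 scale. The co-repressor Ski (0.31) and the receptor gene Tgfbr2 (0.28) passed narrowly, and 0 or 1 gene of the list rose when any single library was left out, and 2 fell without AL library 5. The inhibitory Smad7 was at -0.46 (edgeR adjusted p = 0.0901).

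Of 21 tested p53 targets other than Cdkn1a, 7 rose and 2 fell, with a median of 0.14. Trp53inp1, a stress-induced cofactor of p53, rose from 141 ± 35.2 to 675 ± 85.0 CPM (log2 difference 2.25 with SE 0.18, adjusted p = 1.23e-05 by edgeR). Sesn1, a sestrin that restrains mTORC1, rose by 1.499, the receptor gene Eda2r by 1.65 and the death receptor gene Fas by 0.77. Mdm2, the ubiquitin ligase of p53 and its classical target, was at 0.21 (edgeR adjusted p = 0.249). The count of those that fell was 1 without AL library 2, 3, 4 or 5 or DR library 1, 2 or 4.

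The glucocorticoid response, which is known to include Cdkn1a and Cdkn1c in several tissues, was the list of the 12 with the highest share of genes that rose, 13 of 15 with none lower and a median of 1.83. The 12 lists were chosen with earlier results of these data known, so this rank is no independent result. Pdk4, a kinase that shuts down glucose oxidation, rose from 1.35 ± 0.226 to 30.5 ± 4.33 CPM (log2 difference 4.49 with SE 0.16, adjusted p = 8.21e-08 by edgeR). Glul, glutamine synthetase, rose by 4.40, Tsc22d3, which encodes the glucocorticoid-induced leucine zipper, by 4.004, and the factor Klf15 by 3.12. Per1 (0.49, edgeR adjusted p = 0.0587) and Dusp1 (0.10, edgeR adjusted p = 0.711) did not pass. The glucocorticoid receptor element (an inverted repeat with 3 free bases between its arms, both strands) had no match in the windows of the 6 members in the promoter table, and a match in 0.387% of all windows. Cdkn1c has no window in that table and was not searched. Each window held only the 250 bases before a start, so elements farther away were not looked for. Whether the receptor acts on any member was not tested.

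Of 17 other brakes on the cell cycle, 5 rose and 3 fell, with a median of 0.17. Rbl2, the pocket protein p130 of resting cells, rose from 69.8 ± 10.2 to 159 ± 31.0 CPM (log2 difference 1.19 with SE 0.15, adjusted p = 0.000175 by edgeR). Ccng2 and Ccng1, cyclins linked to growth arrest, rose by 0.79 and 0.50, and Pkmyt1, a kinase that inhibits Cdk1, had a log2 fold change of -1.25. Of 20 E2F targets of S phase, 13 fell and none rose, with a median of -1.18. Uhrf1, a maintenance factor of DNA methylation, fell by 3.92 on the log2 scale, and the synthesis genes Tyms, Rrm1 and Pola1 had log2 fold changes of -1.98, -1.504 and -1.43. All 20 genes of G2 and M phase fell, with a median of -3.97, among them Nuf2 (-4.91), Ube2c (-4.31), Mki67 (-4.01) and Ect2 (-3.95). The AL libraries differed widely on this list. It summed to 157 CPM in AL library 5, 571 to 1080 CPM in the other AL libraries and 29.6 to 71.4 CPM in DR libraries.

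Of 9 tested genes associated with senescence, 2 rose and 3 fell, with a median of -0.18. The lamin gene Lmnb1, whose loss marks senescent cells, fell by 1.54 on the log2 scale, the lysosomal galactosidase gene Glb1 by 0.53 and Mmp3 by 2.27, and the chemokine gene Cxcl1 rose by 1.27. The count of those that rose was 1 without AL library 1, 2, 3 or 5 or DR library 1 or 4. Of 7 tested imprinted neighbours of Cdkn1c on distal chromosome 7, 1 rose and 2 fell, with a median of -0.31. H19, a maternally expressed noncoding RNA of the adjacent domain, had a log2 fold change of -3.89 and Cd81 of -0.62, Ascl2 rose by 0.77 and Tssc4 was at -0.30 (edgeR adjusted p = 0.0510). No gene of the list rose without DR library 2 or DR library 3.

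**Figure D4:**
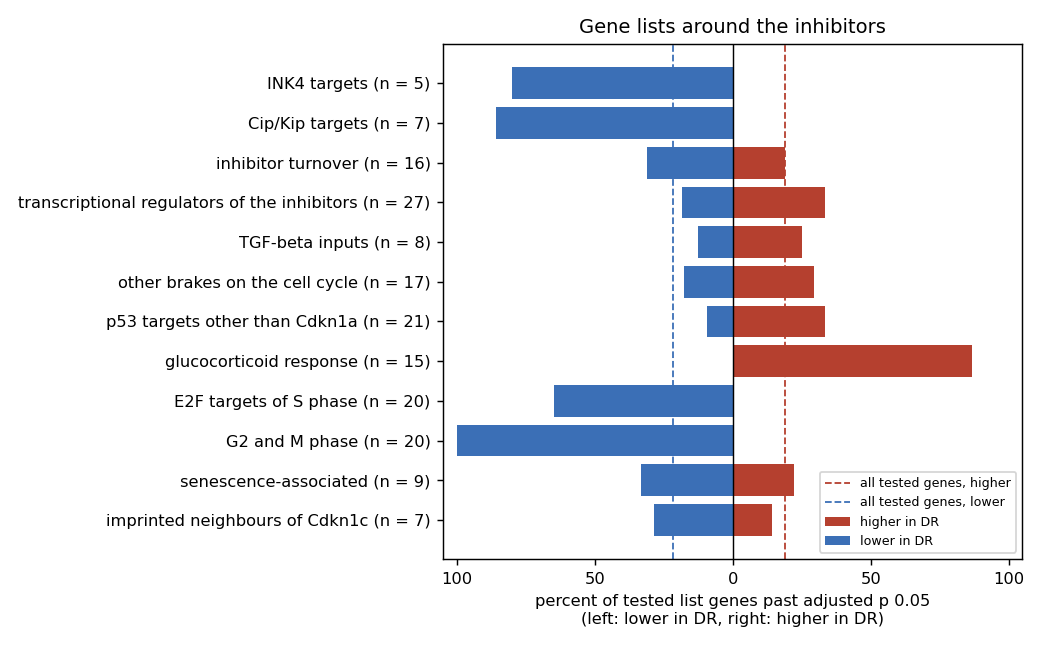
Percent of the tested genes of each list past an edgeR adjusted p of 0.05 (x axis), lower in DR to the left and higher in DR to the right, with dashed lines at the shares over all tested genes (19% higher, 21.7% lower). The cyclin and kinase lists and the S, G2 and M phase lists extend to the left, and the glucocorticoid list to the right.

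The genes most like each member were those with the highest Pearson r of log2 CPM over the 9 libraries, among 10151 genes, given as a description. For Cdkn1a they were Sertad1, a binding partner of Cdk4 (0.990), Pnp, a purine salvage enzyme (0.974), and Mcl1, a survival factor (0.973), and for Cdkn1c they were Hspa2 (0.994), Sertad1 (0.985) and Ankrd57 (0.982). Cdkn2c was closest to Incenp, a chromosomal passenger protein (0.984), Dot1l, a histone methyltransferase (0.983), and Mcm4, a subunit of the replicative helicase (0.982). For Cdkn1b the nearest were Zfp330 (0.984), Commd8 (0.978) and the telomere protein gene Terf2 (0.974). Cdkn2d was most like H2-Ke2 (0.971), Map2k6 (0.952) and Elf3 (0.940), and Cdkn2b like Chst15 (0.967), Atp10b (0.938) and Susd2 (0.923). With 9 libraries of 2 diets, such values also carry the difference between diets and between libraries.

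The nearest tested genes on each side of the members in RefSeq order, with up to 7 untested genes between, mostly did not pass the threshold. Exceptions were Gpr19, an orphan receptor gene with 1 gene between it and Cdkn1b, which rose by 0.77 (SE 0.14, edgeR adjusted p = 0.00147), and Mtap, the methylthioadenosine phosphorylase gene, with 3 genes between it and Cdkn2a and 5 between it and Cdkn2b. Mtap had a log2 fold change of -0.78 (SE 0.12, edgeR adjusted p = 0.000619). Directly next to a member were Rab44 (-0.45) by Cdkn1a, Faf1 (0.11) by Cdkn2c, and Kri1 (0.21) and Ap1m2 (0.12) by Cdkn2d. Farther off, Srsf3 (-0.05) had 2 genes between it and Cdkn1a, and Rnf11 (-0.03) had 7 between it and Cdkn2c. Near Cdkn1c, Trpm5, with 4 genes between, was at -0.79 (edgeR adjusted p = 0.0608) and Slc22a18, with 1 between, at -0.31. Apold1, with 2 genes between it and Cdkn1b, was at 1.697 (edgeR adjusted p = 0.0830) and Gm12635, with 5 between it and Cdkn2b, at -0.37. The sign of Srsf3 and of Rnf11 depended on single libraries.

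Another 3 symbols share the Cdkn prefix without being inhibitors of either family. Cdkn3, a phosphatase that acts on Cdk2, fell from 2.93 ± 1.68 to 0.106 ± 0.0924 CPM (log2 difference -4.71 with SE 0.72, adjusted p = 0.000560 by edgeR), and the groups did not overlap. Cdkn2aip, a binding partner of p19Arf, rose by 0.46 (edgeR adjusted p = 0.0405), and Cdkn2aipnl was at -0.38 (0.0412).

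Across 25 alternative analyses, none of the 6 tested members changed direction, and Cdkn2a had no fold change to follow. Counting the looser threshold of 0.1 and the stricter one of 0.01, Cdkn1a passed in 8 of them and Cdkn1c in 10, Cdkn2c lost it in 9, Cdkn2d passed in 1, and Cdkn1b and Cdkn2b passed in none. The log2 fold change ran from 0.53 to 1.10 for Cdkn1a, 0.51 to 1.17 for Cdkn1c and -1.01 to -0.62 for Cdkn2c.

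**Figure D5:**
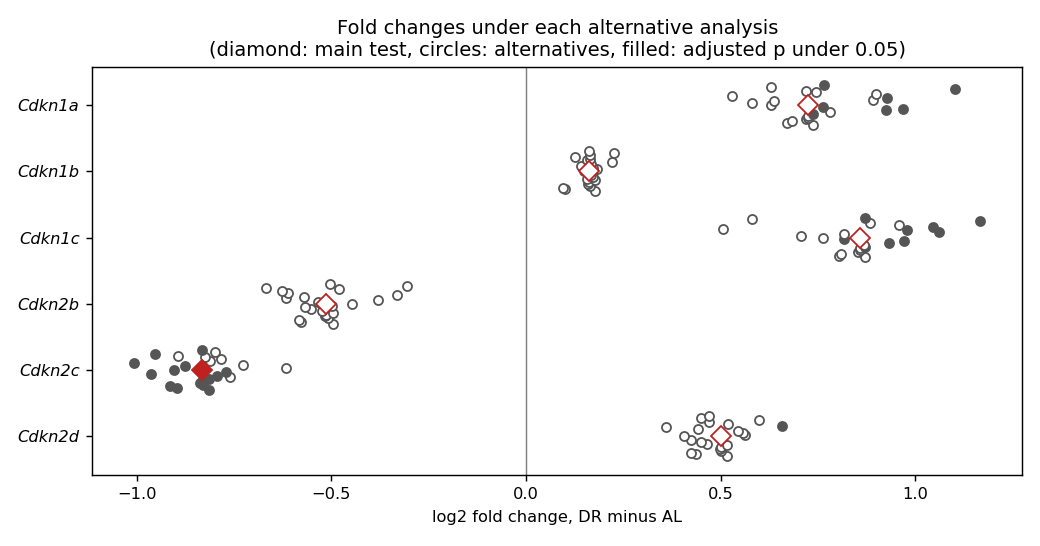
Log2 fold change of DR minus AL (x axis) of 6 inhibitors in the main test (diamonds) and under each alternative (circles), filled where the adjusted p is under 0.05. Each gene stays on 1 side of 0, from 0.53 to 1.10 for Cdkn1a and from -1.01 to -0.62 for Cdkn2c.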

How the data were processed

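RNA of sorted bulge stem cells was sequenced in 5 AL and 4 DR libraries (TruSeq RNA v2, HiSeq2500, single reads of 51 cycles, per the labels' protocols). The authors deposited raw read counts for each gene symbol, as whole numbers with no normalization. Per the submitters' processing notes, FastQC 0.11.5, TopHat2 2.1.0, Bowtie, HTSeq 0.11.2 and mm9 were used, and which annotation, strand setting and rule for multiple mapping they ran with is not given in the sources used here. The labels name 2 origins of mice without saying which library had which.

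Of 35012 lines per file, 6 name no gene. They held 25.9% to 30.7% of reads and were left out, which left 35006 symbols, 24056 with a count. No library copied another: over the 16 pairs within groups, chi-square divided by its degrees of freedom was 26.0 to 118. The test was edgeR 4.0.16 in R 4.3.3 on the counts: filterByExpr by group, TMM, quasi-likelihood fit on diet, Benjamini-Hochberg adjustment over 15447 genes, threshold 0.05. SE is that implied by the F statistic. Lists are given by counts and medians, with no set test. Alternatives used DESeq2 1.42.0, limma 3.58.1 and sva 3.50.0. The scripts were tested on simulated counts. The labels do not say that replicate numbers pair the libraries, and the main fit did not pair them.

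The members were set by gene family name, not by a value, but this family, the 12 lists and the 12 marker lists were chosen with earlier results of these data known. Named are all members, up to 4 genes of each list with the smallest p, the 3 genes most like each member (mean log2 CPM of at least 2), the nearest tested genes on each side and other Cdkn symbols. Skp2, Ccnd3, Ccne1, Ccne2, Cdk2, Mdm2, Cd34, Itga6, Krtdap, Sbsn, Krt10, Nr4a1, Per1 and Dusp1 were named in addition, after their values were seen. Of the marker lists not described with the results, 1 of 2 tested sebaceous gland genes fell (summed 1.72 to 2.46 CPM in AL, 1.19 to 2.59 in DR), and of hair matrix and sheath 1 of 6 rose (63.0 to 74.2 and 94.1 to 125). Of muscle 1 of 2 rose (3.31 to 6.72 and 5.67 to 8.06), of Schwann cells 1 of 4 rose and 1 fell (19.6 to 31.0 and 32.8 to 38.2), and of erythroid cells the 1 tested gene did not pass (0.602 to 1.16 and 0.676 to 0.863). No tested endothelial, leukocyte or adipocyte gene passed. Promoter sequences are those of RefSeq (GRCm38.p6), with 6 of 7 members matched by symbol. Counts were made on mm9, so these coordinates come from another build. Exon lengths and overlaps are from GENCODE M21.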

Additional observations from a re-analysis of the deposited data

Results flagged for a closer look

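Levels of 86 named genes were looked at in each diet for a library far from the others, by the gap to the nearest library as a share of the range. Of 172 gene and group combinations, 10 (5.81%) passed the limit, where chance passes about 1 in 20. None of the 6 tested inhibitors was among them, and Cdkn2a was not looked at. In AL, library 4 was the highest for Smad7 (155 CPM, others 75.7 to 89.5), Trpm5 (0.789 CPM, others 0.369 to 0.490) and Gm12635 (3.95 CPM, others 2.07 to 2.58). AL library 5 was the lowest for Mmp3 (0.0376 CPM, others 0.734 to 0.975) and Faf1 (51.0 CPM, others 56.1 to 57.3). In DR, library 1 was the highest for Apold1 (7.19 CPM, others 0.871 to 1.47) and Gm12635 (3.27 CPM, others 1.68 to 1.73), and library 2 for Ect2 (2.72 CPM, others 1.47 to 1.55). DR library 3 was the lowest for Dtl (0.639 CPM, others 1.17 to 1.22) and DR library 4 for Klf15 (135 CPM, others 180.3 to 188).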

How the results depend on the processing

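At an adjusted p of 0.01, 3937 genes passed, 1866 higher and 2071 lower, against 6290, 2941 and 3349 at 0.05. The count of inhibitors called, 1 in the main test, was 3 with DESeq2, with voom and library quality weights, with a replicate block, with 1 surrogate variable, at a threshold of 0.1, with the immediate early mean as a covariate and without AL library 5 and DR library 2. Those settings called 37.8% to 49.3% of all tested genes, so 3 of 6 is near the share over all genes. It was 0 with limma-voom (40.4% of all tested genes called), at 0.01 (25.5%) and without AL library 1 and DR libraries 1 and 2 (29.4%). When 1 library was left out it was 0 to 3, with 33.1% to 41.5% of all tested genes called. The last covariate and both multiple omissions were chosen after seeing the data. AL library 5 was the highest AL library in Cdkn1a and the lowest in Cdkn2c. DR library 2 was the lowest DR library in Cdkn1a and Cdkn1c. Leaving out both therefore widened the Cdkn1a and Cdkn1c differences by choice, and the calls it gave are no support.

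The Cdkn1a log2 fold change was 0.74 with DESeq2, 0.92 with quality weights, 0.97 with the replicate block, 0.76 with a surrogate variable, 0.77 with the covariate, 1.10 without AL 5 and DR 2, and 0.53 to 0.93 without 1 library. For Cdkn1c these were 0.87, 0.93, 0.97, 0.82, 0.87, 1.17 and 0.51 to 1.06. All but the one-library ranges passed 0.05. At 0.1 the main values 0.72 and 0.86 passed. Cdkn2c was -0.76 with limma-voom, -0.80 without AL 1, DR 1 and DR 2, and -1.01 to -0.62 without 1 library, and its -0.83 did not pass at 0.01. Cdkn2d ran from 0.36 to 0.66 without 1 library. The Cdkn2a exact p was 0.0286 to 0.143 without 1 library, 0.143 without AL 5 and DR 2, and 0.0667 without AL 1, DR 1 and DR 2. Srsf3 turned to 0.0775 without AL 5 and DR 2, and ran from -0.15 to 0.0450 without 1 library (AL 4, DR 2 or DR 3). Rnf11 turned to 0.0239 with quality weights, 0.0193 and 0.0843 under those omissions and -0.11 to 0.0353 without 1 library (AL 4 or DR 1). The causes were not tested.

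The block rests on replicate numbers that the labels do not say pair the libraries. Residuals of same-numbered libraries correlated at 0.0289 to 0.228, above 0.1 in 2 of 4 pairs, and 1 DR library correlated best with its own number. With 4 pairs, these values cannot settle whether the numbers pair the libraries. Of 1994 comparisons for other named genes 1837 kept direction and side of the threshold, 78 lost the call, 70 gained it and 9 reversed, and of 650 list counts 76 moved beyond 1.5 times. Upper-quartile scaling and library size alone shifted the median of all genes to -0.08 and -0.09, and the share of calls that were higher from 46.8% to 39.2% and 38.8%. With 5 and 4 libraries, the members' 95% intervals are wide, and those of Cdkn1b, Cdkn2b and Cdkn2d include 0.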
